A study of Mus musculus with 6 samples.

Results

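The interferon regulatory factors (IRFs) are the family of transcription factors that carry the interferon and pattern recognition response to the nucleus. The transcripts of 8 members, Irf1, Irf2, Irf3, Irf4, Irf5, Irf7, Irf8 and Irf9, were followed here in cultured murine enteric glial cells (EGCs). Members were picked out of the count tables by gene symbol, and they make up 8 of the 46603 genes there. All 8 were detected, and 7 of the 8 had enough counts to enter the test.

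EGCs, the glia of the gut nervous system, were grown out of neurospheres. The neurospheres came from total gut of E14.5 embryos of the strain C57BL/6J. One group of 3 libraries came from cultures given lipopolysaccharide (LPS), the bacterial wall component sensed by TLR4, at 100 ng/ml for 12 h. The other group of 3 came from cultures of the same origin without LPS. Polyadenylated RNA was sequenced in bulk, and the comparison asks how EGCs respond to an inflammatory stimulus.

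Every IRF holds a DNA-binding domain that reads GAAA repeats, the core of the interferon-stimulated response element (ISRE). Below TLR4, the adaptor TRIF and the kinase TBK1 activate IRF3, and secreted type I interferon then acts through the IRF9-containing complex ISGF3 to raise many genes, Irf7 among them. IRF1 activates antigen presentation and guanylate binding genes. IRF2 binds the same element as IRF1 and can repress. IRF5 drives inflammatory cytokines below MyD88, whereas IRF4 and IRF8 are known mainly from lymphoid and myeloid cells, where they bind DNA with PU.1 or BATF. In the mononuclear phagocytes of the gut wall, IRF8 and IRF5 are established lineage and activation factors.

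The libraries held between 18775316 and 23664312 assigned reads, so that 3 reads in a library correspond to 0.124 to 0.167 CPM, the read count of a gene scaled to a common library size. Library sizes for the CPM were adjusted by trimmed mean of M values (TMM). The glial marker Sox10 was present in every library, with 1404 to 2377 reads, and 7 glial markers summed to 329 to 456 CPM over the 6 libraries. Of the 7, S100b was called lower with LPS, from 22.2 to 5.92 CPM on average (log2 fold change -1.91, edgeR adjusted p = 0.0238), and 0 were called higher. Markers of other gut cells were present too: 6 mesenchymal markers, collagen genes among them, summed to 14768 to 15704 CPM, and 6 smooth muscle markers to 2264 to 2489 CPM in the controls and 634 to 900 CPM with LPS. The cultures held macrophage transcripts: 13 macrophage markers summed to 4218, 5477 and 12940 CPM in control 1, 2 and 3, and to 4106, 5324 and 20479 CPM in LPS 1, 2 and 3. All 13 of these markers were highest in the library numbered 3 of each group. All 8 IRFs were likewise highest in control 3, and 5 of the 8 were highest in LPS 3. The part of the macrophage transcripts in the IRF levels was not tested, and in bulk RNA fewer cells of a type and less RNA per cell cannot be told apart.

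To show the DNA in front of the genes, the RefSeq promoter windows (build GRCm38.p6, 250 bases before to 50 after each annotated start) were read for the members. All 8 matched, with 11 windows between them, and both strands were searched for 4 motifs. The ISRE core was GAAA, 2 free bases and GAAA, and the STAT-bound GAS element was TTCNNNGAA. The composite site of an ETS factor such as PU.1 with an IRF was GGAA, 2 free bases and GAAA, which can overlap an ISRE core, and the fourth was the NF-κB consensus. Of all 32851 mouse promoter windows of this length, 3.44% held the ISRE core, 8.30% the GAS element, 2.72% the composite site and 4.51% the NF-κB consensus. Matches were found in 3 of the 11 windows, of Irf1, Irf2 and Irf8. The windows of Irf3, Irf4, Irf5, Irf7 and Irf9 held none of these letter patterns, which says nothing of the factors themselves. The RefSeq starts can differ from the gene starts given below. The NF-κB match of Irf2 (chr8:46739728-46739737) runs past the gene start at 46739732. Both windows of Irf9, from 55603735 and 55604329, lie inside the gene, which starts at 55603571. The stretches are shown from 5′ to 3′ on the gene's strand, with the matches in capitals. Irf1 is printed in full because it was called higher and holds a GAS and an NF-κB match. Irf2 and Irf8 are printed around their matches, and Irf7, which changed most, is printed from its outermost annotated start upward.

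Irf1, chr11:53769764-53770013, plus strand, GAS and then NF-κB match: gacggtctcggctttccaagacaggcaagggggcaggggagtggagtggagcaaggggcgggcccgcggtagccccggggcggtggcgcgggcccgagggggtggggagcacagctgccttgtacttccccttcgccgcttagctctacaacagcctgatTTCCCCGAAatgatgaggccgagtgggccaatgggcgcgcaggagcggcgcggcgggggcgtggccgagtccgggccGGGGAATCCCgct

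Irf2, chr8:46739495-46739544, plus strand, composite site overlapping the ISRE core by 4 bases, then GAS: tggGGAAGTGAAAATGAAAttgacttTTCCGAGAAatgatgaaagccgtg

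Irf2, chr8:46739713-46739744, plus strand, NF-κB match: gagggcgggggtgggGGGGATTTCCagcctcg

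Irf8, chr8:120736172-120736228, plus strand, 2 GAS matches: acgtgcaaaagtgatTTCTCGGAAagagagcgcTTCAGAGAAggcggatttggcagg

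Irf7, chr7:141266482-141266674, minus strand, no match: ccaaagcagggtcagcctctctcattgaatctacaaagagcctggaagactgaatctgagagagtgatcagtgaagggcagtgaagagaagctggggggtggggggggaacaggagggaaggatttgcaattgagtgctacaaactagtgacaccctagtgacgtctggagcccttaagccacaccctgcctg

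After 12 h of LPS, 3 of the 7 tested members were higher and 0 were lower by edgeR's quasi-likelihood test at an adjusted p under 0.05. Of all 15226 genes tested, 9.09% were called higher and 6.71% lower. The 3 members were Irf7, Irf9 and Irf1. At an unadjusted p under 0.05, the same test also gave 3 members higher and 0 lower, as did DESeq2. With the replicate number added to the fit as a block, it gave 5 higher and 1 lower. Without both libraries numbered 3 it gave 4 higher and 1 lower. Irf2, Irf3, Irf5 and Irf8 were not called, and Irf4 was too low to be tested. The libraries of the groups did not overlap for Irf7, Irf9 and Irf1, all higher with LPS, as for 19.3% of all tested genes, and 0 tested members lay wholly below the controls, against 19.4% of the genes.

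Irf7, the amplifier of type I interferon production, showed the largest change of the family. It measured 4.02, 4.51 and 5.12 CPM in control 1, 2 and 3 and 467, 492 and 954 CPM in LPS 1, 2 and 3. Every LPS library thus lay far above every control, and LPS 3 lay above LPS 1 and LPS 2. The LPS to control ratio was 116, 109 and 186 in the libraries numbered 1, 2 and 3. It was thus highest in those numbered 3, which had the most macrophage transcripts, and the part of these transcripts was not tested. The mean rose from 4.55 ± 0.55 to 638 ± 274 CPM (SD, n = 3), a ratio of 140. The log2 fold change was 7.13 (SE 0.39, 95% interval 6.17 to 8.09), with an adjusted p of 0.000417 by edgeR. Among the 15226 genes, this fold change ranked 61 from the top. Read counts went from 95, 102 and 124 to 9456, 8844 and 18243, so the control level rests on far fewer reads than the LPS level. Irf7 lies on the minus strand of chromosome 7 (ENSMUSG00000025498, GENCODE M21, GRCm38, chr7:141262706-141266481), and 45 bases of its exons overlap Phrf1 on the other strand.

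Irf9, the DNA-binding subunit of ISGF3, gave the tightest response. Control libraries held 27.5, 26.9 and 30.9 CPM, and LPS libraries held 118, 120 and 120 CPM. The groups did not overlap, and the LPS libraries differed from each other by about a CPM. The mean rose from 28.5 ± 2.17 to 119 ± 0.696 CPM (SD, n = 3), a log2 fold change of 2.07 (SE 0.080, 95% interval 1.87 to 2.26, edgeR adjusted p = 0.000157). The libraries numbered 3, which had the most macrophage transcripts, gave an LPS to control ratio of 3.87 for Irf9, against 4.31 and 4.44 in those numbered 1 and 2. Irf9 is on chromosome 14 (ENSMUSG00000002325, chr14:55603571-55610030, plus strand), where 123 bases of its exons are shared with Rnf31 on the same strand.

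Irf1, the activator of antigen presentation genes, rose to a similar extent as Irf9. Its values were 19.0, 19.9 and 26.2 CPM in the controls and 85.8, 94.3 and 78.7 CPM with LPS. All LPS libraries exceeded all controls, and the highest control and the lowest LPS library were both numbered 3. The mean rose from 21.7 ± 3.93 to 86.3 ± 7.78 CPM (SD, n = 3), with a log2 fold change of 1.99 (SE 0.15, 95% interval 1.62 to 2.37, edgeR adjusted p = 0.00144). The ratio within replicate numbers was 4.52, 4.75 and 3.01. Irf1 (ENSMUSG00000018899) lies at chr11:53770014-53778374 on the plus strand. The predicted gene Gm17334 overlaps 135 bases of its exons on the other strand.

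**Figure D1:**
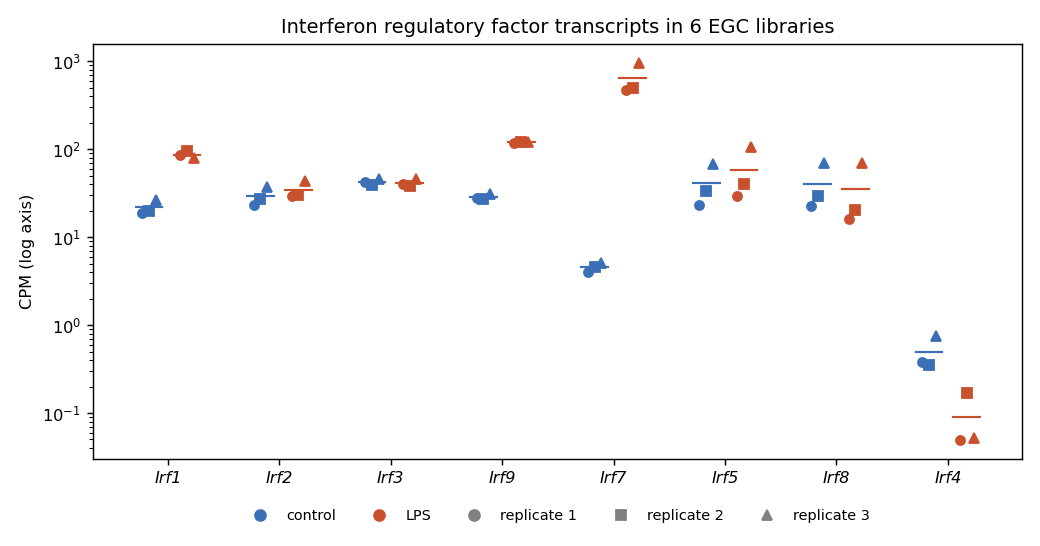
Level of each IRF (CPM, log axis) in the 3 control and 3 LPS libraries; symbols mark the replicate number and bars the group mean. Irf7, Irf1 and Irf9 separate the groups upward, Irf4 separates downward near the detection limit, and Irf5 and Irf8 follow the replicate number more than the treatment.

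Irf3, the factor that TBK1 activates below TLR4, kept nearly the same transcript level. It measured 42.4, 38.9 and 45.5 CPM in the controls and 39.9, 38.5 and 45.5 CPM with LPS, and the groups overlapped fully. Its log2 fold change was -0.03 (SE 0.10, 95% interval -0.28 to 0.22), with an edgeR adjusted p of 0.858. The interval thus leaves room for a change of up to 0.28 on the log2 scale, and the sign turned when control 3 or LPS 2 was left out. The phosphorylation that activates IRF3 protein is not seen by RNA-seq. Irf3 (ENSMUSG00000003184) lies at chr7:44997648-45002848, plus strand, and shares 88 exon bases with Bcl2l12 on the other strand.

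Irf2, the antagonist of Irf1 at shared sites, was not called either. Control values were 23.2, 26.7 and 37.4 CPM and LPS values 28.9, 30.0 and 43.3 CPM, so that the groups overlapped. Each LPS library was nevertheless above the control of its own number, by ratios of 1.25, 1.12 and 1.16, as were all 3 pairs for 31% of all genes. The log2 fold change was 0.23 (SE 0.24, 95% interval -0.36 to 0.82, edgeR adjusted p = 0.569). With the replicate number as a block it was 0.23 as well (SE 0.068, 95% interval 0.049 to 0.41, edgeR adjusted p = 0.0661), and Irf2 was not called. Irf2 (ENSMUSG00000031627) lies at chr8:46739732-46847458 on the plus strand and shares no exon with another gene. Since IRF1 and IRF2 bind the same element, their ratio was also taken within each library, where scaling drops out, although it restates in part the values of Irf1 already given. Reads of Irf1 per read of Irf2 were 0.818, 0.743 and 0.700 in the controls and 2.97, 3.15 and 1.82 with LPS. The ranges did not overlap, and the log2 ratio was 1.77 higher with LPS. The exact permutation test gave a two-sided p of 0.1, the smallest that 3 against 3 libraries can give, and flipping signs within replicate numbers gave 0.25, the smallest for 3 pairs.

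Irf5 and Irf8 differed more between the libraries of a group than between the group means. Irf5 measured 23.3, 32.996 and 68.2 CPM in the controls and 29.6, 40.5 and 105 CPM with LPS. Irf8 measured 22.4, 29.3 and 69.8 CPM in the controls and 16.2, 20.1 and 68.7 CPM with LPS. In each group both genes were highest in the library numbered 3 and lowest in that numbered 1, as was the macrophage marker sum in each group. Without a block for the replicate number neither gene was called: the log2 fold change was 0.49 for Irf5 (SE 0.60, 95% interval -0.98 to 1.96, edgeR adjusted p = 0.627) and -0.21 for Irf8 (SE 0.69, 95% interval -1.91 to 1.49, edgeR adjusted p = 0.867). Leaving out LPS 3 turned the sign of Irf5, to -0.25, and leaving out control 3 turned that of Irf8, to 0.45.

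Because same-numbered libraries deviated from their group means together, the fit with the replicate number as a block was also read. In that fit Irf5 was called higher, with a log2 fold change of 0.42 (SE 0.087, 95% interval 0.19 to 0.65, edgeR adjusted p = 0.0275). The LPS to control ratio of Irf5 was 1.27, 1.23 and 1.53 in numbers 1, 2 and 3. Under the block 4 of the 7 tested members were called higher and 0 lower, where 15.4% of all genes were called higher and 14.9% lower. Irf8 went the other way, with ratios of 0.722, 0.685 and 0.983, and was not called under the block (log2 fold change -0.34, 95% interval -0.67 to -0.00480, edgeR adjusted p = 0.109). All 3 pairs were lower for 34.7% of all genes. With both libraries numbered 3 left out, an alternative chosen after seeing the data, Irf8 was called lower (log2 fold change -0.49, edgeR adjusted p = 0.0472), in a fit where 20.4% of all genes were called lower and 22.6% higher. In the same fit Irf5 was not called (log2 fold change 0.34, edgeR adjusted p = 0.221).

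Reads of Irf8 per read of Irf5 were 0.964, 0.889 and 1.02 in the controls and 0.548, 0.496 and 0.657 with LPS. This ratio restates the opposite directions within the pairs and is given as a description without a test. The markers in the macrophage sum did not move together: of the 13, the fit without the block called 1 higher (Adgre1) and 0 lower, and the fit with it called 4 higher and 4 lower. Under the block Adgre1 had a log2 fold change of 2.67 and Mrc1 one of -3.92, so the sum is no fixed measure of macrophage content. Irf8 amounted to 0.532, 0.535 and 0.540% of the macrophage marker sum in the controls and to 0.394, 0.378 and 0.335% with LPS. This share was alike in the 3 controls and lower in every LPS library, by 0.54 on the log2 scale (exact permutation p = 0.1, or 0.25 when signs were flipped within replicate numbers, each the smallest possible). The difference depended on how the markers were summed, since their geometric mean gave 0.20 lower with overlapping groups (exact permutation p = 0.8, paired 0.75). Irf5 amounted to 0.552, 0.602 and 0.527% in the controls and to 0.720, 0.761 and 0.511% with LPS. Those groups overlapped, the log2 difference being 0.23 (exact permutation p = 0.4, paired 0.5), and it turned to -0.051 without Lyz2 and was 0.57 with the geometric mean.

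Irf5 (ENSMUSG00000029771) is at chr6:29526625-29541871 and Irf8 (ENSMUSG00000041515) at chr8:120736358-120756694, both on the plus strand. For Irf5, 411 exon bases overlap Tnpo3 on the other strand, and reads of the shared stretch can be assigned only with strand information, whose setting the sources used here do not give. No exon of Irf8 is shared.

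**Figure D2:**
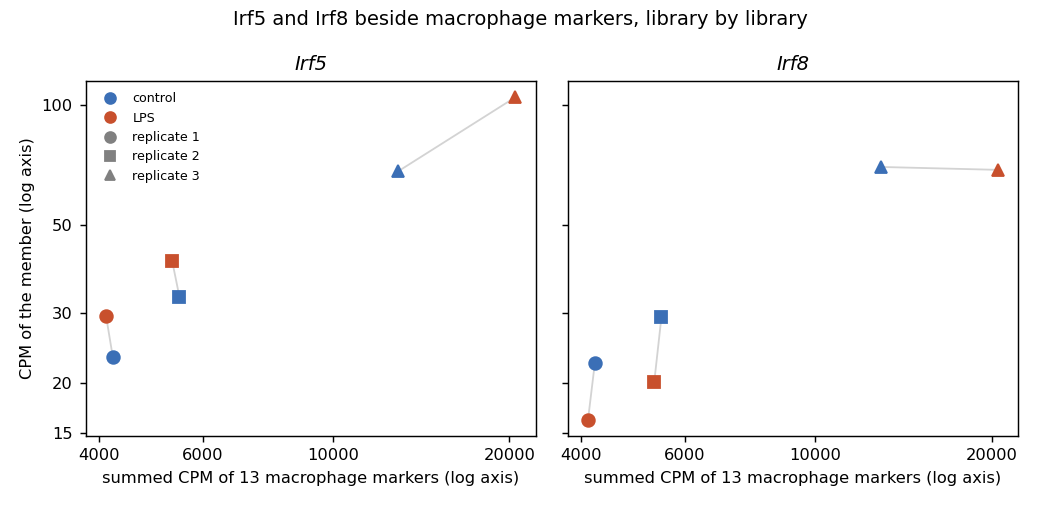
CPM of Irf5 (left) and Irf8 (right) against the summed CPM of 13 macrophage markers, both on log axes, with grey lines joining control and LPS libraries of the same replicate number. Both genes are highest in the libraries numbered 3, which have marker sums of 12940 and 20479 CPM; within numbers, Irf5 lies higher and Irf8 lower with LPS.

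Irf4, a factor of lymphocytes and of some dendritic cells and macrophages, was close to the detection limit. It gave 9, 8 and 18 reads in the controls and 1, 3 and 1 reads with LPS. Each LPS library was at or under the floor of 3 reads, and every control was above it. Over the group, 35 control and 5 LPS reads gave a CPM ratio of 5.70 in favour of the controls, with an exact 95% counting interval of 2.22 to 18.6 that covers counting error only. In the fit without the filter on low counts Irf4 was not called (edgeR adjusted p = 0.0690). The lymphoid and dendritic markers were also sparse: of 5 T cell markers 4 were at or under 3 reads in every library, as were 4 of 5 dendritic cell markers and 3 of 5 B cell markers. The remaining dendritic cell marker, Zbtb46, averaged 10.5 ± 0.136 CPM in the controls and 6.84 ± 0.647 CPM with LPS and was called lower (log2 fold change -0.62, edgeR adjusted p = 0.0265). Whether Irf4 followed this marker was not tested. Among the B cell markers Pax5 gave 1, 1 and 0 reads in the controls and 53, 44 and 32 with LPS. Irf4 (ENSMUSG00000021356) lies at chr13:30749226-30766976 on the plus strand.

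**Figure D3:**
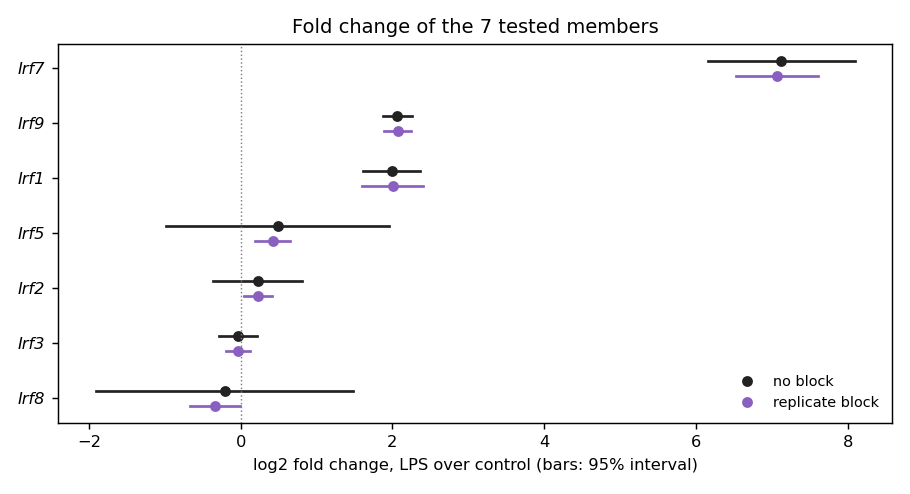
Log2 fold change of the 7 tested IRFs, LPS over control, with 95% intervals, from the fit without (black) and with (purple) the replicate number as a block. The intervals of Irf7, Irf9 and Irf1 lie above 0 in both fits, and the intervals of all tested members but Irf1 are narrower under the block. Those of Irf5 and Irf2 lie above 0 only under the block, and that of Irf8 lies below 0 only there.

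To compare levels between members, CPM was divided by the exon length of each gene. In the controls the order was Irf5 (14.3 ± 8.13 CPM per kilobase, SD, n = 3), Irf3 (12.3 ± 0.957), Irf8 (5.74 ± 3.63), Irf1 (5.45 ± 0.989), Irf9 (5.28 ± 0.402), Irf2 (3.94 ± 1.00), Irf7 (1.21 ± 0.146) and Irf4 (0.101 ± 0.0443). Of the neighbours in this order, only Irf3 and Irf8, Irf2 and Irf7, and Irf7 and Irf4 had ranges over the 3 libraries that did not overlap. With LPS the order became Irf7 (169 ± 72.6), Irf9 (22.1 ± 0.129), Irf1 (21.7 ± 1.96), Irf5 (20.0 ± 13.9), Irf3 (12.0 ± 1.08), Irf8 (4.96 ± 4.14), Irf2 (4.60 ± 1.09) and Irf4. Irf7 was then above all others without overlap, and Irf3 was above Irf8, whereas Irf9, Irf1 and Irf5 could not be ordered. Among the genes with a length, the mean level per kilobase of Irf7 moved from percentile 22.5 to percentile 98.5. Irf9 moved from percentile 52.2 to 84.1 and Irf1 from 53.0 to 83.8, while Irf3 went from 74.3 to 71.7. The order depended on the length used. With the principal transcript, a setting chosen after seeing the data, the control order was Irf3, Irf5, Irf8, Irf2, Irf9, Irf1, Irf7 and Irf4, and only the last 2 steps, from Irf1 to Irf7 and from Irf7 to Irf4, were free of overlap. The LPS order was then Irf7, Irf9, Irf1, Irf5, Irf3, Irf2, Irf8 and Irf4. The ranges of Irf9 and Irf1 no longer overlapped with LPS, whereas those of Irf3 (18.9 to 22.4 CPM per kilobase) and Irf8 (5.69 to 24.1) now did, as they did in the controls (19.2 to 22.4 against 7.88 to 24.5).

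Summed over the 8 members, the level was 48.3 ± 15.03 CPM per kilobase in the controls and 254 ± 91.3 CPM per kilobase with LPS (SD, n = 3). Irf7 accounted for 2.83, 2.87 and 2.07% of this pool in control 1, 2 and 3 and for 63.3, 62.6 and 70.3% in LPS 1, 2 and 3. The mean share of Irf3 went from 26.7 to 4.995% and that of Irf5 from 28.1 to 7.31%, while neither gene was called lower and the pool itself grew. With Irf7 set aside, Irf1 went from 11.9 to 26.4% and Irf9 from 11.7 to 26.7% of the remaining pool, and Irf3 from 27.4 to 14.3%. With the principal transcript as the length, Irf3 held 24.3% and Irf5 19.7% of the control pool and Irf7 66.3% of the LPS pool. Per read of Irf9, Irf7 gave 0.146, 0.167 and 0.166 reads in the controls and 3.94, 4.12 and 7.98 with LPS, without overlap.

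**Figure D4:**
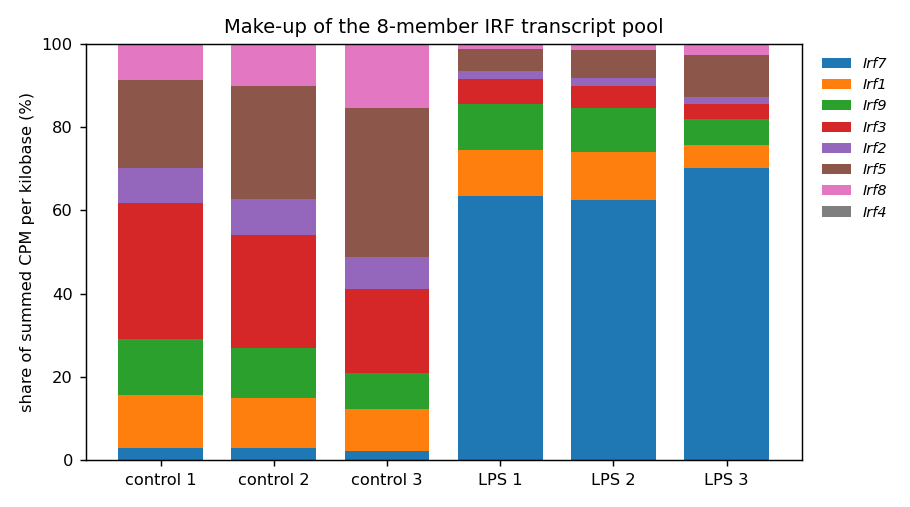
Share of each member (percent of summed CPM per kilobase of exon) in each of the 6 libraries, as stacked bars from 0 to 100%. Irf7 fills 2.07 to 2.87% of the control bars and 62.6 to 70.3% of the LPS bars, and control 3 has the widest Irf5 and Irf8 segments of the controls.

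For each tested member, the 2 genes with the most similar profile were sought among 11480 genes with a mean of at least 5 CPM over all 6 libraries, a limit that some genes pass only through their LPS values. Likeness was the root mean square difference of centred log2 CPM over the 6 libraries, given here as a description without a test. Irf7 ran closest to the long noncoding RNA AW112010 (0.24) and to Isg15 (0.30), the ubiquitin-like interferon-stimulated protein, which averaged 0.381 and 3.56 CPM in the controls and so passed only through LPS. Irf1 ran closest to Relb (0.064), an NF-κB subunit, and Il1rap (0.083). Relb was also nearest to Irf9 (0.086), followed by Trim12a (0.099). Within the family, Irf1 and Irf9 were each other's nearest member at 0.12. Irf5 ran with Itgb2 (0.089), the leukocyte integrin beta chain, and Aim2 (0.095), a cytosolic DNA sensor. Irf8 ran with Arhgap9 (0.071) and Efhd2 (0.095). Irf3, with hardly any change between libraries, was nearest to BC027231 (0.027) and Recql5 (0.031), and Irf2 to Pon3 (0.026) and Ap1g2 (0.032).

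The genes around the members were then counted list by list, reading each against the median over all tested genes of -0.02. The median of the 7 tested IRFs was 0.49, and it was 0.013 without LPS 3 and 1.06 without control 3. Of 14 TLR4 adaptors and IRF kinases, 5 were called higher and 0 lower, with a median log2 fold change of 0.57. Ikbke, the inducible IRF3 and IRF7 kinase, rose from 32.4 ± 7.89 to 226 ± 105 CPM (log2 fold change 2.80, edgeR adjusted p = 0.00839). Traf3, the adaptor that recruits the IRF kinases, rose by 0.91 on the log2 scale (edgeR adjusted p = 0.00614), Ly96, the TLR4 coreceptor MD-2, by 0.64 (adjusted p = 0.0134) and Ikbkb, an NF-κB kinase, by 0.49 (adjusted p = 0.0165). The fifth was Tbk1, the IRF3 kinase, at 0.66 (adjusted p = 0.0412), which was named after its values were seen. Tlr4 itself measured 92.8 ± 6.75 CPM in the controls and 94.2 ± 5.40 CPM with LPS and was not called. The count was 1 without control 2 and 2 without control 1, LPS 1 or LPS 2, against 8 with the replicate block. The calls over all genes moved likewise, from 1384 higher to 379 without control 2, 470 without control 1, 619 without LPS 1 and 523 without LPS 2, and to 2343 (15.4%) with the block.

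Of 5 genes of cytosolic nucleic acid sensing upstream of the IRFs, 3 were called higher and 0 lower, with a median of 0.63, which was 1.22 without control 3. The count was 2 with upper-quartile factors, with library size alone, without the low-count filter and with any single library but control 3 left out. It was 4 with the replicate block. The RNA sensor genes Ifih1 (MDA5) and Ddx58 (RIG-I) gave log2 fold changes of 3.40 and 3.25 (adjusted p of 0.00030 and 0.000417 by edgeR), and Tmem173 (STING) gave 0.59 (edgeR adjusted p = 0.0450). Of 12 listed genes for interferons, their receptors, JAKs and STATs, 9 could be tested and 6 were called higher and 0 lower, with a median of 0.91. Stat2, which binds IRF9 in ISGF3, went up by 2.979 (edgeR adjusted p = 0.00179). Jak2 rose by 2.65 (adjusted p = 0.00371) and Ifngr2, a chain of the interferon gamma receptor, by 0.91 (adjusted p = 0.00505). The 3 ligands on the list were hardly seen at 12 h: Ifnb1 gave 17 reads in LPS 3 and 0 in the other 5 libraries, Ifna4 gave 1 read in LPS 1 and Ifng gave 0 in all 6, which allows up to 0.124 to 0.167 CPM per library.

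Among 8 partners and binding proteins of the IRFs, 2 were called higher and 0 lower, with a median of 0.46, which was 0.17 without LPS 3 and 0.74 without control 3. Batf, which pairs with IRF4 and IRF8, rose from 2.40 ± 0.892 to 26.0 ± 11.2 CPM (log2 fold change 3.44, edgeR adjusted p = 0.00647). Spib, an ETS factor, rose from 0.226 ± 0.0840 to 5.58 ± 3.19 CPM (log2 fold change 4.59, edgeR adjusted p = 0.0110). It gave 7, 3 and 6 reads in the controls and 135, 145 and 38 with LPS. It thus passed the count filter only through LPS. With at least 10 counts in every library, 6 of the list were tested and 1 was called higher. Without control 1 or control 2, 1 of the list was called. Spi1, which encodes PU.1, gave 620, 965 and 2248 reads in the controls and 771, 846 and 3664 with LPS, again highest in the libraries numbered 3, and was not called (edgeR adjusted p = 0.538). Of 6 genes that restrain IRF and interferon signalling, 5 were called higher and 0 lower, with a median of 2.68. These included Usp18, the ISG15 protease that dampens the interferon receptor (6.52, edgeR adjusted p = 0.00030), and Socs1 (3.09, adjusted p = 0.00030). Socs3 rose by 2.45 (adjusted p = 0.00136), and Trim21, a ubiquitin ligase of IRFs, by 2.55 (adjusted p = 0.00122).

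All 13 genes known as targets of IRF3, IRF7 and ISGF3 were called higher and 0 lower. Their median log2 fold change was 6.60. Of all genes tested, 9.09% were called higher. The count was 12 with DESeq2, 12 with limma-voom and 11 to 13 with single libraries left out. With at least 10 counts in every library, 11 were tested and 11 called higher, with a median of 5.92. The median was 5.99 without both libraries numbered 3. Ifit1 went from 4.15, 5.22 and 3.63 CPM to 488, 545 and 581 CPM (log2 fold change 6.96, edgeR adjusted p = 7.71e-05). Isg15 rose by 6.60 (adjusted p = 0.00026), and Oasl2 by 5.14 (adjusted p = 0.000108). Ccl5, a chemokine, gave 3, 5 and 6 reads in the controls and 21935, 26608 and 31073 with LPS. It passed the count filter only through its LPS reads. The targets of IRF1 were called higher in 8 of the 10 tested genes, with 0 lower and a median of 3.10, which was 3.74 without control 3. With at least 10 counts in every library, 8 were tested and 6 called higher, with a median of 2.87. Gbp2, a guanylate binding protein, rose from 11.0 ± 2.23 to 614 ± 141 CPM (log2 fold change 5.81, edgeR adjusted p = 0.00026), Cd274 (PD-L1) by 4.35 (adjusted p = 0.000217) and the peptide transporter Tap1 by 2.82 (adjusted p = 0.00109). Nos2, the inducible nitric oxide synthase, gave 1, 1 and 0 reads in the controls and 15601, 17254 and 1033 with LPS. Like Ccl5, it passed the count filter only through LPS. For this list 3 genes were called without control 2 and 5 without control 1. The target lists name genes from general knowledge of the IRFs and were chosen with earlier results of these data known. Their counts are therefore a description, and no binding was measured here.

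**Figure D5:**
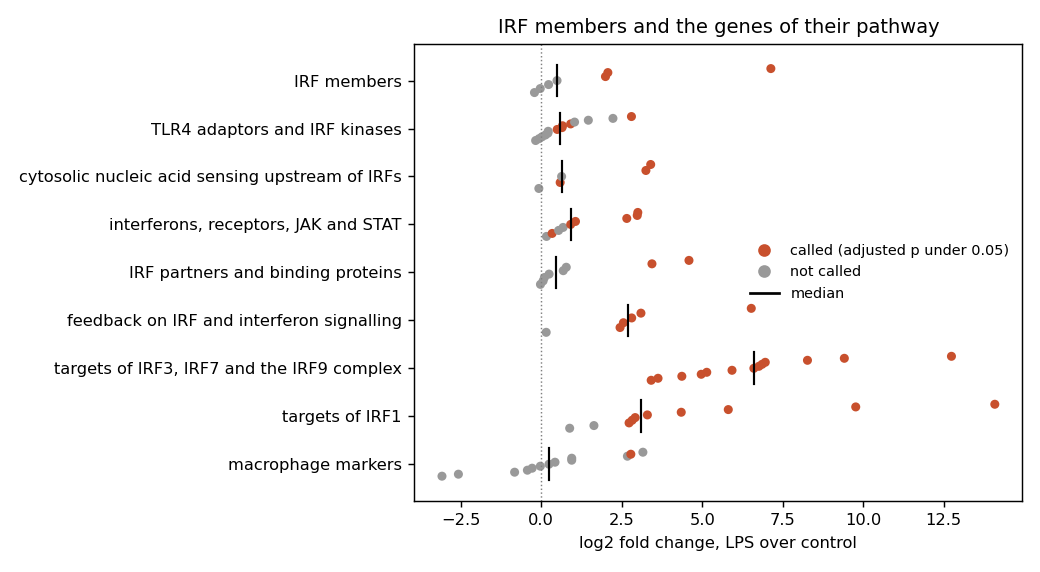
Log2 fold change (LPS over control) of each tested gene in the IRF family, its pathway lists and the macrophage markers, coloured where the adjusted p was under 0.05; vertical bars are list medians. The medians run from 0.46 for IRF partners to 6.60 for the targets of IRF3, IRF7 and the IRF9 complex, beside 0.49 for the IRFs and 0.24 for the macrophage markers.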

How the data were processed

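RNA of EGCs was sequenced as 3 control and 3 LPS stranded poly(A) libraries. The deposited files hold raw read counts per gene (GENCODE M21, GRCm38): per the submitters' processing notes, the authors used cutadapt 1.15, Bowtie2 2.3.3.1, STAR 2.5.2b, SAMtools 1.5 and featureCounts 1.5.3. The strand setting is not given in the sources used here, so reads of exons that overlap a gene on the other strand may be split differently. A table of the whole series repeats the same 6 files and was not used. Groups were taken from the labels.

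Counts were tested with edgeR 4.0.16 in R 4.3.3 (filterByExpr with a minimum of 10 counts, TMM, quasi-likelihood F-test, two-sided), with Benjamini-Hochberg adjustment over 15226 genes and calls at an adjusted p under 0.05. Log2 CPM for the likeness of profiles used a prior count of 2. Ratios within libraries were tested by exact permutation, unpaired and by sign flips within replicate numbers. The script was tested on simulated data. All 8 members are named, and of each pathway list up to 4 called genes with the smallest adjusted p. The members and lists were chosen with earlier results of these data known. The sources used here do not say whether the replicates are separate animals or cultures, so p-values measure the spread between these samples, which may be technical.

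The labels number the replicates 1 to 3 in each group. The deviations of same-numbered libraries from their group means correlated at r = 0.513, 0.334 and 0.613 over 15226 genes. Each control library correlated best with the LPS library of its own number, so the numbers were read as pairing the samples. Alternatives covered RLE, upper-quartile and no scaling factors, 2 filters, DESeq2 1.42.0, edgeR's exact test, limma-voom (limma 3.58.1), the replicate block and leaving out each library. Leaving out both libraries numbered 3, the block without a filter, the principal transcript length and the pool without Irf7 were chosen after seeing the data.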

Additional observations from a re-analysis of the deposited data

How the results depend on the processing

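Irf7, Irf9 and Irf1 were called higher under all 17 alternatives, with log2 fold changes of 6.71 to 7.31, 1.91 to 2.15 and 1.84 to 2.24. The replicate block changed the call of Irf5 (0.42, edgeR adjusted p = 0.0275, and 0.40 with no filter, adjusted p = 0.0283) and of no other tested member. Without both libraries numbered 3, Irf8 was called lower (-0.49), so 1 member was. Signs turned for members that were not called: Irf3 gave 0.038 without control 3 and 0.017 without LPS 2, Irf5 gave -0.25 without LPS 3, and Irf8 gave 0.45 without control 3, 0.13 without LPS 1 and 0.066 without LPS 2. Over the 6 fits with a library left out, Irf3 spanned -0.11 to 0.038, Irf5 -0.25 to 1.06 and Irf8 -1.16 to 0.45. Relative to the macrophage sum, leaving out Lyz2 gave -0.051 for Irf5 and -0.82 for Irf8, and the geometric mean gave 0.57 and -0.20. The causes were not tested.

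Over all genes, 1384 were called higher and 1022 lower. DESeq2 gave 2079 and 1673, the replicate block 2343 and 2273, and leaving out both libraries numbered 3 gave 3498 and 3159. Upper-quartile factors gave 1050 and 1589 and library size alone 986 and 2054, the median of all genes then being -0.12 and -0.17 against -0.02. Leaving out single libraries gave 379 to 1964 higher and 112 to 1426 lower. Of the TLR4 adaptors and IRF kinases, 8 were higher with DESeq2, 8 with the replicate block, 9 without both libraries numbered 3 and 1 to 7 with single libraries left out. Of the IRF partners, 1 was higher with at least 10 counts in every library, where fewer genes were tested, 4 without both libraries numbered 3, and 1 to 2 with single libraries left out. Of the IRF1 targets, 3 to 8 were higher with single libraries left out. Counting error limits Irf4, with at most 3 reads in each LPS library. In all, 514 of 563 values kept their direction and side of the threshold or moved by less than the set limit. That limit was wide, since 1384 and 1964 genes called higher counted as the same. Ratios under the replicate block could not change by construction, and the pathway lists had 0 genes lower under every setting. The tally is therefore no measure of robustness.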
